A study of Mus musculus with 6 samples.

Results

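The 10 genes studied here are used by myoblasts to recognise each other, adhere and fuse, and were followed in mouse adipose-derived stromal cells (ADSCs) after co-culture with regulatory T cells (Treg). They are a set named for this role, chosen with earlier results of these data known, and found in the table by gene symbol. The set comprises the fusogens Mymk and Mymx, the cadherins Cdh15, Cdh2 and Cdh11, and the ferlins Myof and Dysf. It also holds the junctional adhesion molecules Jam2 and Jam3 and the Rac activator Dock1. All 10 were found among the 22186 genes of the table, and all 10 passed the filter on low values. The Treg co-culture group was primary ADSCs of wild-type (WT) genotype after 48 h with Treg (3 libraries), and the control group was primary ADSCs of the same genotype kept alone (3 libraries). The labels give each library a batch, 1 to 3, which a Treg co-culture and a control library share. No group was co-cultured with another cell, so the presence of Treg and co-culture in general cannot be told apart. The series title names myogenic differentiation of mesenchymal stem cells, and the comparison asks whether genes of that programme's fusion step differed after co-culture.

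Skeletal muscle fibres form when mononucleated myoblasts align, adhere through cadherins and other surface proteins, remodel cortical actin and merge their membranes. The multipass protein myomaker, encoded by Mymk, and the micropeptide myomerger, encoded by Mymx, carry out the membrane step, and fibroblasts made to express both can fuse. Stromal cells of fat do not normally form fibres and are known for mesenchymal cadherins such as Cdh11.

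The values are TPM, a share of all transcripts corrected for gene length that adds up to 1000000 in each library, so the sequencing depth behind the values is unknown and counting intervals are not given. Because TPM is per length, levels of different genes may be compared within a library. The bulk samples cannot tell more muscle-lineage cells from more transcript per cell. All 8 adipose stromal markers (Itgb1, Thy1, Pdgfrb and others) were tested, and their summed level ran from 2523 to 2555 TPM in Treg co-culture and from 2530 to 2577 TPM in control libraries. Itgb1 made up the largest part of that sum, and single markers went both ways, with 3 called higher and 4 lower, among them Cd44 (log2 fold change 0.58) and Pdgfra (-0.45), named after their values were seen. Muscle-lineage markers were present in both groups, with a summed level of 748 to 765 TPM in Treg co-culture and 274 to 303 TPM in control libraries over 8 genes led by Des, Myog and Myod1, and 5 of the 6 tested rose. Of 12 Treg and T cell markers, 7 were listed at 0 in every library, including Cd3e, Cd4 and Il2ra, and the summed level, mostly from Ikzf2, Lck and Ptprc, was 4.05 to 4.47 TPM in Treg co-culture and 3.38 to 4.24 TPM in control libraries. Treg co-culture 1 stood apart on the second principal component (score 14.2, against -7.66 to 2.28 for the other libraries). It also held transcripts of other organs, with Alb at 64.9 TPM there, against at most 0.210 TPM elsewhere. The myosin light chain genes Myl2 and Myl3, of the same marker list, were at 10.9 and 5.30 TPM in Treg co-culture 1. In the other libraries they were at most 0.869 and 0.296 TPM. Without Treg co-culture 1 the same 6 of the 10 genes were called higher and the same 3 lower.

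Of the 10 genes, 6 rose, 3 fell and 1 was not called in Treg co-culture. The fusogens and the muscle cadherin Cdh15 changed by at least 2-fold, while the other 6 called genes changed by at most 1.21-fold by the ratio of mean TPM. Calls come from limma on log2(TPM + 1), with p-values adjusted by Benjamini-Hochberg across the 12405 genes tested and called under 0.05; this scale understates changes of low genes. Among all genes tested 37.8% were called, 19.8% as higher and 18.0% as lower, so a call alone is common in this comparison. The groups did not overlap for 9 of the 10 genes, against 49.3% of all genes tested. Because the 10 genes were chosen with earlier results of these data known, such counts describe them and do not test them as a set. The median log2 fold change was 0.23 over the 10 genes and 0.00151 over all genes tested.

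**Figure D1:**
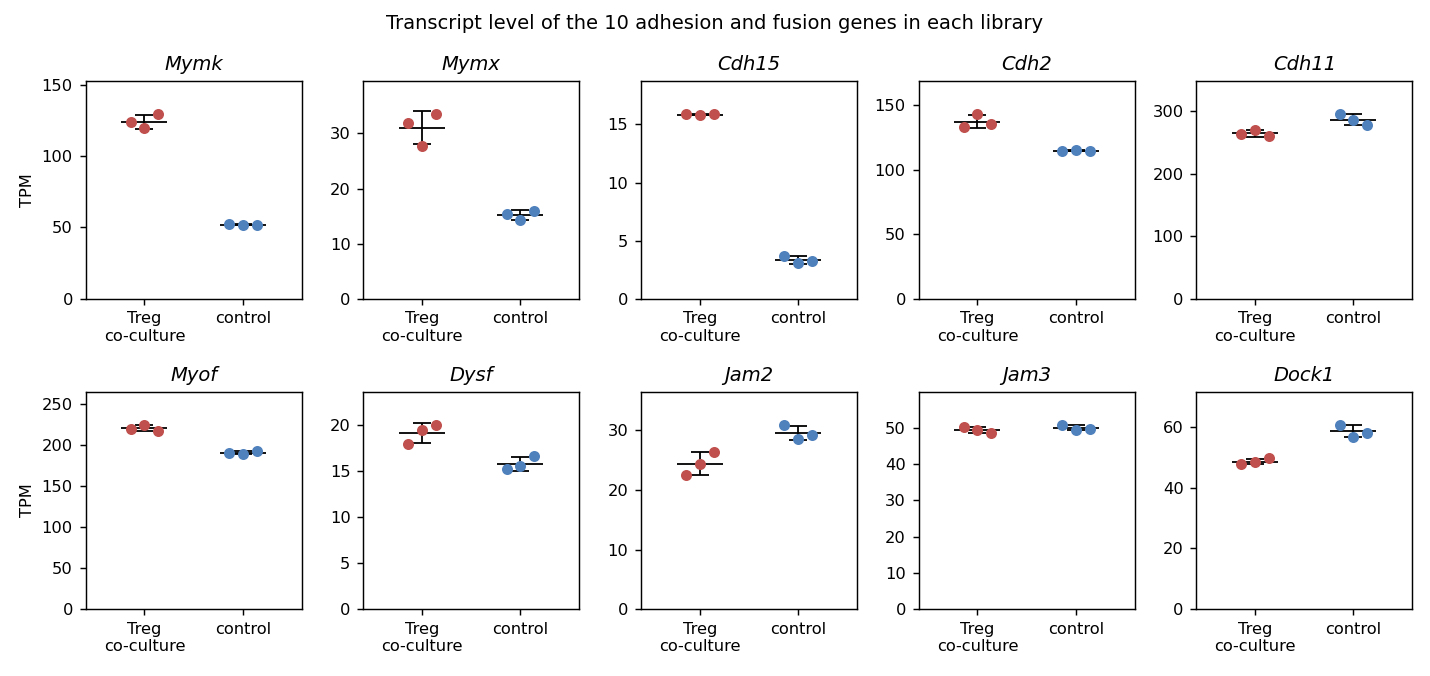
TPM of each of the 10 genes in each library, with Treg co-culture on the left and control on the right of each panel; points are libraries 1 to 3, and bars are the mean and SD (n = 3). The group means of Mymk, Mymx and Cdh15 are at least 2-fold apart, and the points of Jam3 overlap.

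The fusogens were already expressed in control cells and were higher in Treg co-culture. Mymk was at 123.9, 119.6 and 129.5 TPM in Treg co-culture 1 to 3, against 52.6, 51.8 and 51.9 TPM in control 1 to 3. The lowest co-culture library thus lay above every control library. Mymk averaged 124.3 ± 4.95 TPM in Treg co-culture and 52.1 ± 0.426 TPM in control libraries (SD, n = 3 each), a 2.39-fold higher level, with a log2 fold change of 1.24 (SE 0.04, limma adjusted p = 1.01e-08). Mymx was at 32.0, 27.7 and 33.5 TPM in Treg co-culture 1 to 3, against 15.4, 14.3 and 16.0 TPM in control 1 to 3. These groups did not overlap either, and Treg co-culture 2 was the lowest of its group for both fusogens. The mean of Mymx was 2.04-fold higher in Treg co-culture, with a log2 fold change of 0.98 (SE 0.08, limma adjusted p = 6.84e-06). Within batches 1, 2 and 3 the differences on the log2 scale were 1.22, 1.19 and 1.30 for Mymk and 1.01, 0.91 and 1.02 for Mymx.

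Mymk was the more abundant fusogen in every library, and its ratio to Mymx stood slightly higher in Treg co-culture. The ratio of Mymk to Mymx was 3.88, 4.31 and 3.87 in Treg co-culture 1 to 3, against 3.41, 3.62 and 3.25 in control 1 to 3. Mymx made up 19.96% ± 0.980 of the summed fusogen TPM in Treg co-culture and 22.6% ± 0.964 in control libraries (SD, n = 3 each). The groups did not overlap, and an exact two-sided permutation test gave p = 0.1, the smallest that 3 against 3 libraries allow.

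Both fusogens had a smaller log2 fold change than Myog, the transcription factor of terminal muscle differentiation, which averaged 293.6 ± 6.56 TPM in Treg co-culture and 104.9 ± 3.37 TPM in control libraries (SD, n = 3 each). Myog and Myod1, which commits cells to the muscle lineage, had log2 fold changes of 1.48 (SE 0.03) and 1.64 (SE 0.07). For each TPM of Myog there were 0.424 ± 0.0264 TPM of Mymk in Treg co-culture and 0.497 ± 0.0198 TPM in control libraries (SD, n = 3 each). The corresponding values for Mymx were 0.106 ± 0.0123 in Treg co-culture and 0.145 ± 0.00844 in control libraries. For both fusogens the groups did not overlap (exact two-sided permutation p = 0.1 each). These ratios were chosen after the values were seen.

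The cadherins are calcium-dependent adhesion proteins that bind their own kind on neighbouring cells. Cdh15 encodes M-cadherin, which myogenic cells carry at their contacts. Its TPM were 15.9, 15.8 and 15.9 in Treg co-culture 1 to 3, against 3.69, 3.07 and 3.24 in control 1 to 3. All co-culture libraries lay more than 4-fold above the highest control library. The mean was 4.76-fold higher, and the log2 fold change of 1.96 (95% interval 1.76 to 2.16, limma adjusted p = 1.28e-07) ranked at position 3 from the top among the genes tested. Per TPM of Myog, Cdh15 was 1.70-fold higher in Treg co-culture, with 0.0540 ± 0.00130 there and 0.0318 ± 0.00397 in control libraries (SD, n = 3 each, exact permutation p = 0.1). Per TPM of Myod1 it was 1.46-fold higher, with 0.217 ± 0.00331 in Treg co-culture and 0.148 ± 0.0320 in control libraries (exact permutation p = 0.1). Both ratios were chosen after the values were seen.

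The RefSeq promoter table (GRCm38.p6) matched 4 of the 10 genes, Cdh15, Dysf, Dock1 and Myof. The sequence upstream of Cdh15 is shown because that gene had the largest log2 fold change of the 10. It covers chr8:122848124-122848373 on the plus strand, 250 bases that end just before the gene start, with matches to the E-box in capitals.
Cdh15: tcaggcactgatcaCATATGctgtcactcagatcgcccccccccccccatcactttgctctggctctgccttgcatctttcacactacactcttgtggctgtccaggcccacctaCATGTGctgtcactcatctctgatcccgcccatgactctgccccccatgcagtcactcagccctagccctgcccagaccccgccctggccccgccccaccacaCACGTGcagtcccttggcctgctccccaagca
The E-box CANNTG is the motif that Myod1, Myog and many other basic helix-loop-helix factors bind, and it reads the same on both strands. The stretch above holds 3 matches. The full window, from 250 bases before to 50 after the gene start, holds 4, and at least as many occur in 6.49% of the 32851 promoter windows of the same length. The window of Dock1 held 1 match, that of Myof 0, and the 2 windows of Dysf held 0 and 1, while 72.3% of all windows hold at least 1. The form CAGCTG was in none of these windows and is in 16.3% of all windows. These matches describe the letters and are not measured binding sites.

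Cdh2 encodes N-cadherin, found on mesenchymal, neural and muscle cells. It was at 133.3, 142.9 and 135.2 TPM in Treg co-culture 1 to 3, against 114.4, 115.2 and 114.5 TPM in control 1 to 3. The groups did not overlap, and the gene rose 1.20-fold (log2 fold change 0.26, SE 0.03, limma adjusted p = 0.000264). Cdh11 encodes OB-cadherin, the cadherin of osteoblasts and other mesenchymal cells, and was the most abundant of the 3 cadherins in every library. It was at 263.4, 269.4 and 259.7 TPM in Treg co-culture 1 to 3, against 294.9, 285.5 and 277.2 TPM in control 1 to 3. Cdh11 fell by 7.57%, with a log2 fold change of -0.11 (SE 0.03, limma adjusted p = 0.0129). This call was lost without Treg co-culture 3 (adjusted p = 0.0508) and without the mean-variance trend in limma (adjusted p = 0.0879).

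Within the 3 cadherins of the set the shares stood apart between the groups, while the sum overlapped. Their summed level was 412.6, 428.2 and 410.8 TPM in Treg co-culture 1 to 3, against 412.9, 403.8 and 394.9 TPM in control 1 to 3 (exact two-sided permutation p = 0.3). Cdh15 made up 3.80% ± 0.0952 of this sum in Treg co-culture and 0.824% ± 0.0667 in control libraries (SD, n = 3 each). Cdh2 held 32.9% ± 0.538 in Treg co-culture and 28.4% ± 0.659 in control libraries. Cdh11 held 63.3% ± 0.466 in Treg co-culture and 70.8% ± 0.616 in control libraries. None of these 3 shares overlapped between the groups (exact permutation p = 0.1 each). Other cadherins that passed the filter were not in this sum. Among them Cdh3 averaged 60.1 TPM in Treg co-culture and 63.9 TPM in control libraries and was not called.

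**Figure D2:**
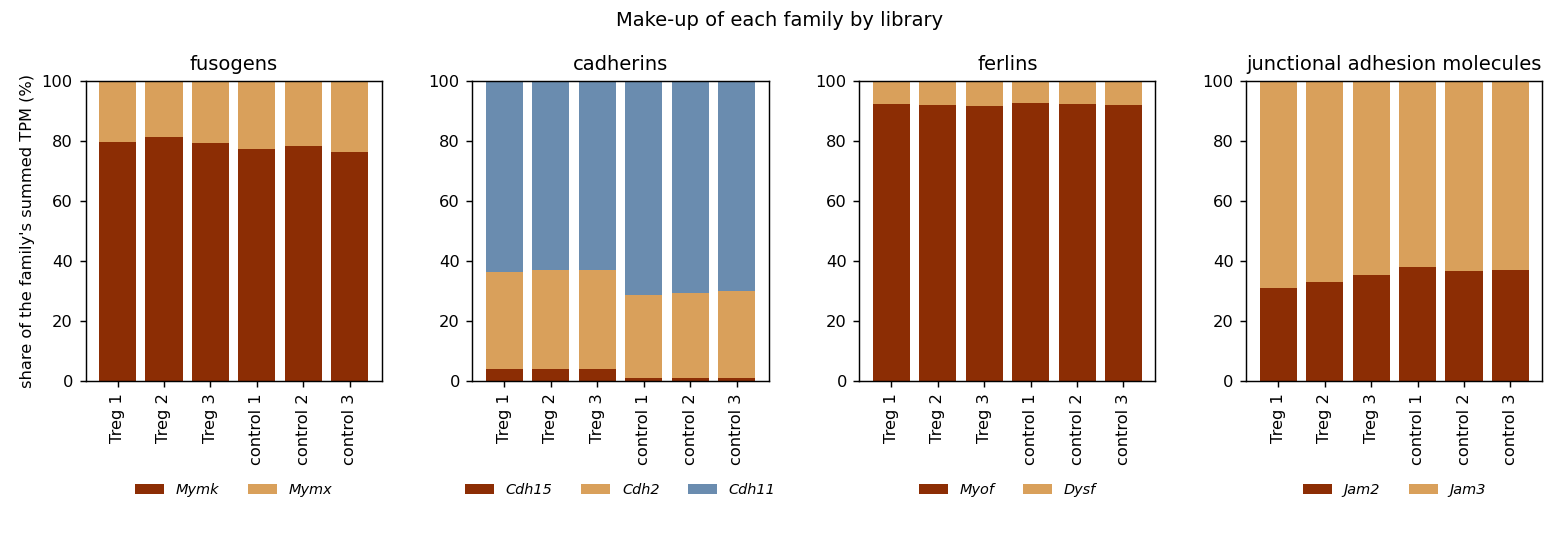
Share of each gene in the summed TPM of those genes of its family that are in the set (in percent). Treg co-culture 1 to 3 and control 1 to 3 are shown for 4 families, and each bar is 1 library. Related genes outside the set, such as Cdh3 and F11r, are not in these sums. The Cdh11 segment is shorter in the Treg co-culture bars (63.3% on average) than in the control bars (70.8%), while the ferlin bars look alike.

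The ferlins are large C2-domain proteins of the plasma membrane. Myof encodes myoferlin, which is needed in mice for full-sized myofibres, and Dysf encodes dysferlin, which reseals torn muscle membrane and whose loss causes muscular dystrophy. Myof was at 219.1, 224.4 and 217.1 TPM in Treg co-culture 1 to 3, against 190.6, 188.9 and 192.3 TPM in control 1 to 3. It rose 1.16-fold without overlap (log2 fold change 0.21, SE 0.03, limma adjusted p = 0.000187). Dysf was at 17.9, 19.5 and 19.99 TPM in Treg co-culture 1 to 3, against 15.2, 15.5 and 16.7 TPM in control 1 to 3. It rose 1.21-fold, also without overlap (log2 fold change 0.26, SE 0.07, limma adjusted p = 0.0137), but its call was lost without Treg co-culture 3 (adjusted p = 0.0533). Myof took 92.0% ± 0.435 of the ferlin sum in Treg co-culture and 92.4% ± 0.302 in control libraries (SD, n = 3 each), and these shares overlapped (exact permutation p = 0.4). Dysf is also expressed by monocytes and macrophages. The summed level of 8 macrophage markers was 66.3 to 78.6 TPM in Treg co-culture and 91.0 to 98.0 TPM in control libraries, with Lyz2, Cd68 and Csf1r the most abundant. Of the 7 tested, Lyz2 fell (-0.55) and 6 were not called, among them Cd68 (-0.21) and Csf1r (0.19). The part of these cells in the Dysf difference was not tested.

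The junctional adhesion molecules are immunoglobulin-domain proteins of cell contacts, and in zebrafish the products of the Jam2 and Jam3 orthologues bind each other between fusing muscle precursors. Jam2 was at 22.6, 24.3 and 26.4 TPM in Treg co-culture 1 to 3, against 30.9, 28.5 and 29.2 TPM in control 1 to 3. The groups did not overlap, and Jam2 fell by 17.3% (log2 fold change -0.27, SE 0.07, limma adjusted p = 0.00997). Within batches 1, 2 and 3 its difference on the log2 scale was -0.44, -0.22 and -0.14. Jam3 was at 50.3, 49.4 and 48.6 TPM in Treg co-culture 1 to 3, against 50.8, 49.5 and 49.6 TPM in control 1 to 3. These groups overlapped. Its log2 fold change was -0.02 with a 95% interval of -0.11 to 0.07 (limma adjusted p = 0.792), which does not show that the level was the same. Jam2 made up 33.1% ± 2.13 of their sum in Treg co-culture and 37.1% ± 0.645 in control libraries (SD, n = 3 each; exact permutation p = 0.1). The related F11r was not in the sum of Jam2 and Jam3. It averaged 53.1 TPM in Treg co-culture and 55.1 TPM in control libraries and was not called. Endothelial cells also carry Jam2. The summed level of 6 endothelial markers was 33.6 to 35.4 TPM in Treg co-culture and 39.1 to 40.7 TPM in control libraries, with Tek, Kdr and Cdh5 the most abundant. Of the 5 tested, Tek (-0.36) and Cdh5 (-0.45) fell and Kdr rose (0.27); the call of Kdr was lost without any 1 of the 6 libraries (limma adjusted p = 0.0535 to 0.0932). The part of these cells in the Jam2 difference was not tested.

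Dock1 encodes the exchange factor that activates the GTPase Rac at the contact site, a step needed for fusion in mouse and fly embryos. It was at 47.8, 48.2 and 49.5 TPM in Treg co-culture 1 to 3, against 60.5, 56.6 and 58.0 TPM in control 1 to 3. Every co-culture library was below every control library. Dock1 fell by 16.9% (log2 fold change -0.26, SE 0.04, limma adjusted p = 0.000905), and its within-batch differences were -0.34, -0.23 and -0.22 on the log2 scale. Its relative Dock5, which also acts in myoblast fusion in mice, averaged 17.7 ± 0.205 TPM in Treg co-culture and 12.6 ± 0.261 TPM in control libraries (SD, n = 3 each) and rose (log2 fold change 0.45, SE 0.06, limma adjusted p = 0.000316).

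**Figure D3:**
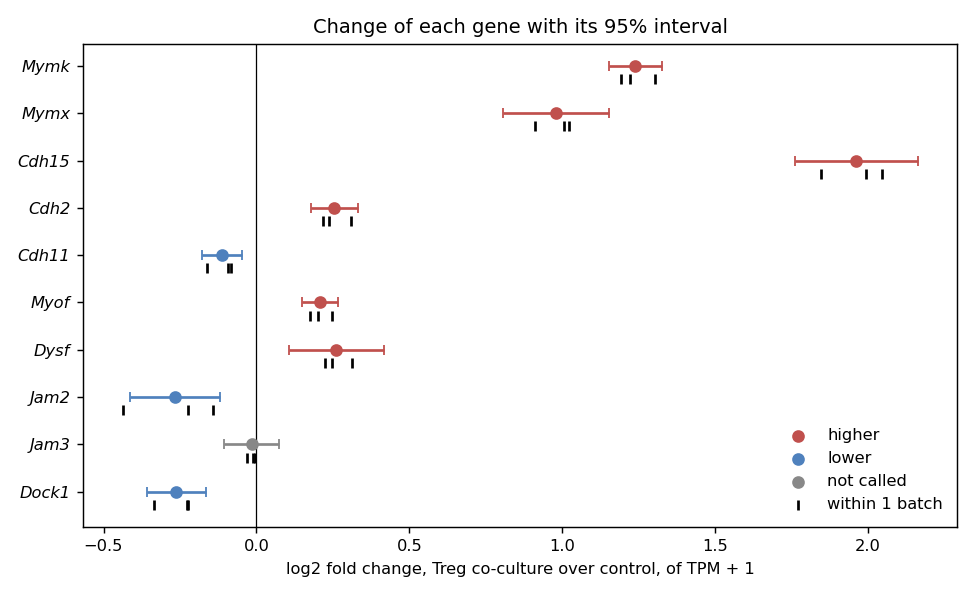
Log2 fold change of each of the 10 genes (Treg co-culture over control, TPM + 1) with its 95% interval from limma; black ticks are the differences within each of the 3 batches. Cdh15 (1.96), Mymk (1.24) and Mymx (0.98) lie far to the right, and the interval of Jam3 spans 0.

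The wider machinery was read from 5 lists with 133 genes in all, of which 104 were tested, 32 rose and 22 fell. That is 30.8% higher and 21.2% lower, beside 19.8% and 18.0% over all genes tested. The lists were chosen with earlier results of these data known, so these shares describe the lists and do not test them. Higher calls were spread unevenly, from 1 of 9 tested genes in the catenin and cadherin list to 11 of 25 in the membrane repair list. Each list count below is to be read beside the shares over all genes tested. Of 34 tested genes of Rac signalling and branched actin, 8 rose and 1 fell, with a median log2 fold change of -0.01. Besides Dock5, the Arp2/3 subunit gene Actr3 rose (0.15, SE 0.02) to 464.2 ± 2.51 TPM in Treg co-culture, against 418.0 ± 10.2 TPM in control libraries (SD, n = 3 each). The adaptor gene Bcar1 rose (0.27, SE 0.05), and Sh3pxd2a, a scaffold of podosomes, fell (-0.17, SE 0.03). The higher count was 5 without control 3, without Treg co-culture 2 or without Treg co-culture 3, and the lower count was 2 without control 1 or without Treg co-culture 1.

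Of 23 catenin and other cadherin genes, only 9 passed the filter on low values, and 1 rose and 2 fell among them (median log2 fold change -0.01). Cdh13, the membrane-anchored T-cadherin, rose (0.62, SE 0.11). Plakoglobin, Jup, fell (-0.27, SE 0.05), as did the endothelial cadherin Cdh5 (-0.45, SE 0.11). The higher count was 2 without control 1. The catenins Ctnnb1, Ctnna1 and Ctnnd1, which tie cadherins to actin and were named after their values were seen, were not called, with log2 fold changes of -0.04, 0.00666 and 0.00466. Ctnnb1 was called lower under quantile normalization (-0.07), and the sign of Ctnna1 and Ctnnd1 depended on the setting.

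Of 19 tested immunoglobulin-family and tight junction genes, 5 rose and 5 fell (median log2 fold change -0.06). The neural cell adhesion molecule Ncam1, also found on regenerating muscle, rose (0.73, SE 0.04) to 119.4 ± 4.87 TPM in Treg co-culture, against 71.8 ± 2.65 TPM in control libraries (SD, n = 3 each). Vcam1 rose (0.23, SE 0.03), as did Nectin1 (0.36, SE 0.07), and the perivascular and endothelial marker Mcam fell (-0.33, SE 0.07). The lower count was 3 without control 1, control 2 or control 3 and 2 without Treg co-culture 1.

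Of 17 tested genes for integrins, ADAM proteases, tetraspanins and phosphatidylserine receptors, 7 rose and 5 fell (median log2 fold change 0.07). The gene of the muscle integrin-binding protein melusin, Itgb1bp2, rose (1.51, SE 0.08) to 38.9 ± 2.29 TPM in Treg co-culture, against 13.0 ± 1.42 TPM in control libraries (SD, n = 3 each). The laminin receptor of muscle Itga7 (0.90, SE 0.06), the laminin receptor Itga6 (0.71, SE 0.07) and the fibronectin receptor Itga5 (0.63, SE 0.03) also rose. Cd9 and Cd81, tetraspanins that take part in myoblast fusion, fell (-0.31 and -0.26), as did the lipid scavenger receptor Cd36 (-0.61); these 3 were named after their values were seen. The lower count was 3 without control 2 or without Treg co-culture 1, and the higher count was 4 without Treg co-culture 3.

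Of 25 tested genes of membrane repair and caveolae, 11 rose and 9 fell (median log2 fold change -0.04). Among caveolar genes, those of muscle fibres rose. Cav3 (1.32, SE 0.07) averaged 28.2 ± 1.09 TPM in Treg co-culture and 10.7 ± 0.676 TPM in control libraries, and Cavin4 (1.29, SE 0.05) 72.6 ± 0.672 TPM in Treg co-culture and 29.2 ± 1.91 TPM in control libraries (SD, n = 3 each). Their widely expressed relative Cav1 fell (-0.40, SE 0.02) to 315.7 ± 5.89 TPM in Treg co-culture, against 416.5 ± 1.35 TPM in control libraries (SD, n = 3 each). Cavin1, Cavin2 and Cavin3 fell too (-0.17, -0.15 and -0.20), while Cav2 was not called (-0.12); these 4 were named after their values were seen. The call of Cavin2 was lost without control 1, control 3 or Treg co-culture 1 (limma adjusted p = 0.0728, 0.0681 and 0.0772). It was also lost without the mean-variance trend in limma (adjusted p = 0.0820). Cav2 was called lower without Treg co-culture 3 (-0.25, limma adjusted p = 0.0423). Bin1, which shapes the membrane tubules of muscle, rose (0.55, SE 0.03). The repair genes Trim72 (1.19), Ano5 (1.23) and Capn3 (1.30), likewise named after their values were seen, also rose. Repair genes did not all rise, as the 9 that fell on this list also include Ahnak (-0.31), S100a10 (-0.27), Anxa4 (-0.23), Ehd2 (-0.20) and Vps4a (-0.13). These were named after their values were seen as well, and their calls under other settings were not followed. Of the remaining ferlin genes, Otof and Fer1l5 were listed at 0 in every library, and Fer1l4 and Fer1l6 did not pass the filter.

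**Figure D4:**
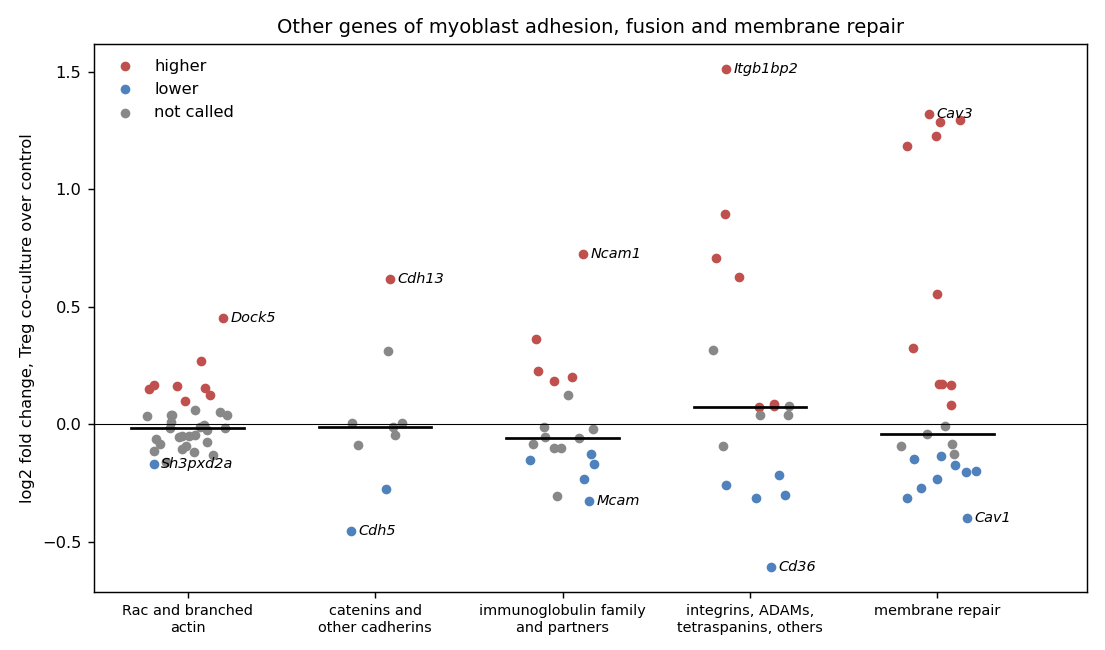
Log2 fold change (Treg co-culture over control, TPM + 1) of the 104 tested genes of 5 lists of adhesion, fusion and membrane repair; each point is a gene, coloured by its limma call, and black lines are list medians. The medians lie between -0.06 and 0.07, and single genes reach 1.51 (Itgb1bp2) and -0.61 (Cd36).

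Nothing in the labels ties the replicates to separate cultures or animals. The p-values here therefore reflect only library-to-library spread, which may be technical.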

How the data were processed

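Messenger RNA of 6 libraries was enriched on capture beads, fragmented by heat and sequenced, per the labels' protocols. The authors deposited TPM per gene in 1 table, a column for each library, and TPM keeps no sequencing depth. Builds named in the submitters' processing notes are GRCm38, mm10 and GRCm39, without saying what each was for; aligner, counter and annotation were not given in the sources used here. Gene numbers were paired with symbols through RefSeq (GRCm38.p6, 21992 of 22186 matched). No pair of libraries shared more than 60 of 13935 values above 0, so each library was counted as 1 replicate.

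Genes averaging at least 1 TPM across the libraries were tested on log2(TPM + 1) with limma 3.58.1 (R 4.3.3; lmFit, eBayes with a mean-variance trend), comparing Treg co-culture with control and using no block. The fit was first tested on simulated data. Shares within a family, counting only its genes in the set, were compared by an exact permutation test over 20 arrangements. Python 3.11.15, pandas 2.3.3 and matplotlib 3.10.9 were used for tables and plots. Protein sequences were not used here.

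The 10 genes and the lists were chosen with earlier results of these data known. Named genes were the 10, Myod1 and Myog, the called genes of each list with the lowest adjusted p (at most 4), and the 3 most abundant genes per marker list. Libraries with the same number share a batch, per the labels, so the batch was a block in an alternative fit. Within a batch, deviations from the group means correlated at 0.0115, -0.0146 and 0.00402. Other alternatives were a pseudocount of 0.1, no filter or a filter of 5 TPM, 3 other scalings, eBayes without the trend, and each library left out.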

Additional observations from a re-analysis of the deposited data

How the results depend on the processing

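All 10 genes kept their direction under the 14 alternatives. The filters, the missing trend and the replicate block leave every log2 fold change as it was, so there only the calls could differ. Over all alternatives, 137 of 140 values kept their side of the threshold. The exceptions were Cdh11 without Treg co-culture 3 (-0.10) and without the mean-variance trend (-0.11), and Dysf without Treg co-culture 3 (0.23). The replicate block (batch) changed no call of the 10 genes or of 49 other named genes tested. With it Cdh11 had a limma adjusted p of 0.0148. Each batch holds 1 library of each group, so the log2 fold change of Cdh15 stayed at 1.96 by design. The shares within families kept their direction in all 48 values, which include 1 log2 ratio per share, on another scale than percentage points. For the shares, too, the replicate block could not change the direction. Of 677 values of the 49 other genes, 19 lost and 2 gained a call, among them lost calls of the markers Kdr, Thy1 and Itgb1. In 5 values the sign turned, all in genes that were not called: Ctnna1 under quantile normalization (-0.0115), and, with each library left out, Ctnna1 (-0.00758 to 0.0203), Ctnnd1 (-0.0189 to 0.0237) and Ikzf2 (-0.0293 to 0.0866). No scaling moved the median of all genes by more than 0.1. With each library left out in turn, 5 to 6 of the 10 genes were called higher and 2 to 3 lower. Among the lists, the Rac and branched actin genes had 2 lower calls with no filter, median-of-ratios scaling or quantile normalization, and 5 higher calls without the trend. Leaving out each library gave 5 to 7 higher and 1 to 2 lower calls for them, 1 to 2 higher calls for other cadherins and catenins, 2 to 4 lower calls for the immunoglobulin family, and 4 to 7 higher and 3 to 4 lower calls for integrins and their list. The causes were not tested. With 3 libraries a group no exact permutation test could pass the threshold, and genes under 1 TPM were not tested.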
